A study of Mus musculus with 2 samples.

Results

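Cadherins and protocadherins are calcium-dependent adhesion proteins that sit in the cell membrane and bind mostly to copies of themselves on neighbouring cells. Their mRNA was compared here between cultured mouse oligodendrocytes, the myelin-forming cells of the central nervous system, and cultured astrocytes, the glia that support neurons and vessels. Members were all gene probes whose name in the array files begins with Cdh and a digit, or with Pcdh. That gave 67 genes, read by 113 probes on 122 spots, of 27670 genes with 41174 probes on 43379 spots in all. Of the 67 genes, 60 had a probe bright enough to be tested, as did 21896 genes in all. The members comprise 18 classical cadherins, 5 other cadherins, 31 clustered protocadherins and 13 other protocadherins. Oligodendrocytes and astrocytes both came from untreated primary cultures of the mouse strain C57BL/6J. The oligodendrocytes were shaken off mixed glial cultures after 10 to 14 days. The astrocytes stayed on the dish in medium with 10% fetal calf serum, were freed of microglia by a further shake 7 to 10 days later, and were then lifted with trypsin, so the cell types also differed in time in culture, serum and harvest. RNA of both cell types competed on each of 2 Agilent arrays, labelled as replicates 1 and 4, with the dyes exchanged between them. The question put by the series is which mRNAs oligodendrocytes hold in excess. Its text speaks of 3 samples per cell type, and arrays besides these were not used here. Nothing in the labels ties the replicates to separate cultures. The p-values therefore rest only on how far these 2 arrays differ, a spread that may be technical. For each gene limma draws that spread largely from all genes, so a p-value does not measure the gene's own SD.

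Classical cadherins join cells through their outer domains and hold the actin skeleton through catenins at their inner tail. Type I members such as N-cadherin give strong adhesion, and type II members form a larger, more cell-selective set. Clustered protocadherins are encoded side by side in alpha, beta and gamma arrays of variable exons, and each cell uses a few of them, which gives neurons a surface identity. In the alpha and gamma arrays each variable exon is spliced to constant exons that all members of the array share, while beta genes have no shared exons. The remaining protocadherins, most of them in the delta group, are single genes with broader roles in cell sorting, migration and axon growth.

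Between 76.6% and 83.9% of gene spots were well above background in each channel, and no gene spot was saturated. Across the 21896 genes, which are not independent replicates, Pearson's r between the arrays' log2 ratios was 0.93 and Spearman's rho 0.81. All 9 oligodendrocyte markers tested were called higher in oligodendrocytes, with a median log2 ratio of 4.13, and all 8 astrocyte markers were called higher in astrocytes, with a median of -3.08. Markers of other cells moved too. Microglia markers were called higher in oligodendrocytes for 7 of 8 genes, with summed signals of 144603 and 183389 there and 42568 and 44713 in astrocytes, all above background. Their part in the results below was not tested. In such cultures, which hold several cell types, fewer cells of a type and less RNA per cell cannot be told apart.

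With the settings of this report, oligodendrocytes had more of most protocadherins outside the clusters (8 of 13), above all Pcdh9, Pcdh17 and Pcdh20. The count was 5 of 13 under median centring and under spike-in scaling, described below. Oligodendrocytes also had more of the type II cadherin Cdh20 by its brighter probe, while its dimmer probe was called the other way. Astrocytes had more of the type I cadherins Cdh4 (R-cadherin) and Cdh2 (N-cadherin), of Pcdh10, and of RNA read by probes that several gamma protocadherins share. A gene was called where limma's adjusted p was under 0.05, and its log2 ratio is oligodendrocyte over astrocyte throughout. Of the 60 genes tested, 32 were called, a share of 53.3%, against a background of 41.2% of all genes. The calls were 22 higher in oligodendrocytes, against 18.5% of all genes, and 10 higher in astrocytes, against 22.6% of all genes. The median log2 ratio of the 60 genes was 0.10, beside -0.004 for all genes. On both arrays 5 genes were at least 2-fold higher in oligodendrocytes and 5 at least 2-fold higher in astrocytes, together 10 of 60 genes, where 12.4% of all genes passed that size in either direction. The sign of the ratio was the same on both arrays for 52 of the 60 genes, against 76.3% of all genes. The median difference between the arrays was 0.14 on the log2 scale for these genes and 0.17 for all.

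The split of the calls depended on the scaling. Under median centring in place of loess, 6 members were called higher in oligodendrocytes and 6 in astrocytes. Scaling to the spike-in controls, whose designed ratios are not given in the sources used here, shifted the median of all genes to -0.71 and gave 6 and 41. Of all 21896 genes, median centring called 1085 and 1843 in these directions, and the spike-in scaling 1258 and 18020. Counts under these scalings, here and below, are to be read beside those. The members' median of -0.61 was then above that shifted median by about the amount it was above 0 with loess. Of 23 called genes followed by name, 12 kept their call and direction under each of 13 alternatives tested with limma. These were Pcdh9, Pcdh17, Pcdh20, Pcdh8, Pcdh19 and Cdh20 on the oligodendrocyte side, and Cdh4, Pcdh10, Cdh2, Pcdh21, Cdh22 and Pcdhga7 on the astrocyte side. The 13 alternatives used a gene's brightest probe or the mean of its probes. They could therefore not show that the dimmer Cdh20 probe by itself was called higher in astrocytes, at -0.83.

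**Figure D1:**
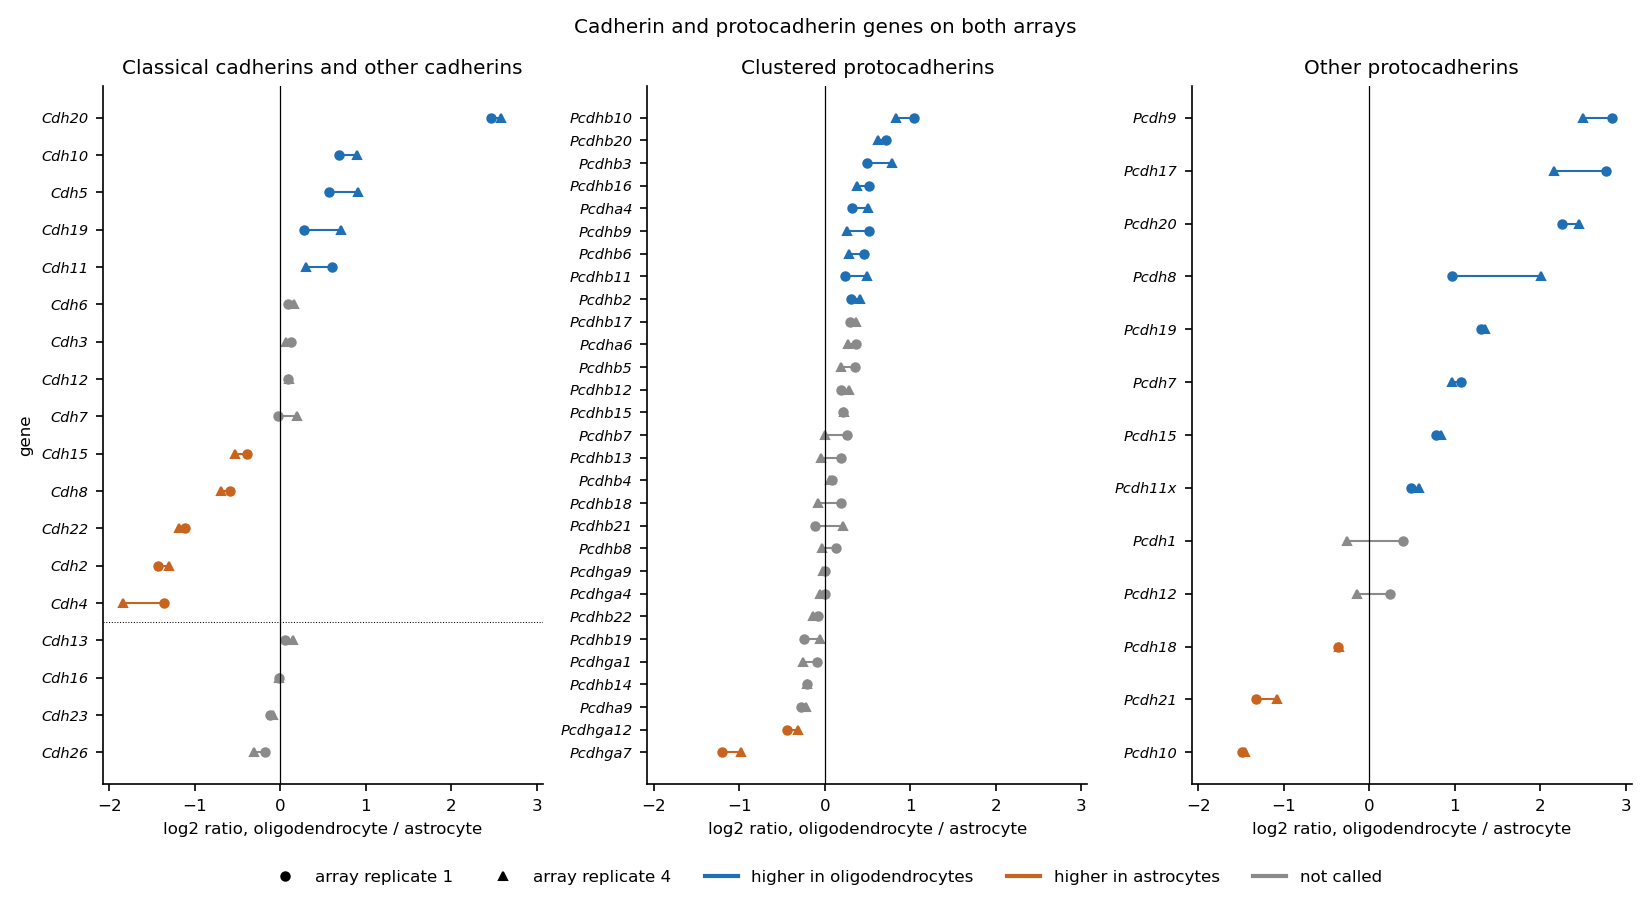
Log2 ratio of oligodendrocyte over astrocyte (x axis) for each of the 60 tested genes (y axis), with a circle for the array of replicate 1, a triangle for replicate 4 and colour for limma's call; the dotted line parts classical from other cadherins. Pcdh9, Cdh20, Pcdh17 and Pcdh20 lie above 2 on both arrays, while the clustered protocadherins lie mostly within 1 of 0.

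Among the 13 protocadherins outside the clusters, 11 were called (84.6%), against 41.2% of all genes. Of the 13, 8 were higher in oligodendrocytes (61.5%, against 18.5% of all genes). Another 3 were higher in astrocytes (23.1%), near the 22.6% of all genes. The median log2 ratio of the 13 was 0.81. Under the spike-in scaling the counts were 5 and 5, and under median centring 5 and 2. Over all 21896 genes they were 1258 and 18020, and 1085 and 1843. Of the delta 1 genes, which have a longer extracellular part, 3 of 4 were called and all 3 were higher in oligodendrocytes. All 5 delta 2 genes were called, 3 higher in oligodendrocytes and 2 in astrocytes. The 4 remaining genes gave 2 calls for oligodendrocytes and 1 for astrocytes.

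Pcdh9, a delta 1 protocadherin known mainly from neuronal circuits, had the largest ratio of all members. Its normalised signal, in arbitrary units of spot intensity, was 10404 in oligodendrocytes and 1458 in astrocytes on the array of replicate 1, and 9465 and 1672 on that of replicate 4. Both oligodendrocyte signals exceeded both astrocyte signals. The log2 ratios were 2.84 and 2.50, a mean of 2.67 ± 0.24 (SD, n = 2) or 6.36-fold, with a limma adjusted p of 2.48e-07. All 5 of its probes were called higher in oligodendrocytes, at mean log2 ratios of 1.70 to 2.67. The probe that stands for the gene is at chr14:88233295-88233354 in the mm7 build of the array design.

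Pcdh17, a delta 2 protocadherin that helps axons extend along each other, was close behind. Its signal was 11758 in oligodendrocytes and 1725 in astrocytes on replicate 1, and 8925 and 2000 on replicate 4, again without overlap. The mean log2 ratio was 2.46 ± 0.43 (SD, n = 2), with a limma adjusted p of 1.09e-06. Its 3 probes were all called in that direction, at 1.05 to 2.46. Pcdh20, a protocadherin outside the delta group, was dimmer, with signals of 778 and 724 in oligodendrocytes and 163 and 132 in astrocytes. Its mean log2 ratio was 2.35 ± 0.14 (SD, n = 2) or 5.11-fold, with a limma adjusted p of 3.59e-07.

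Pcdh8, also called arcadlin or paraxial protocadherin and known for removing N-cadherin from the surface of synapses, varied most between the arrays. Its log2 ratios were 0.97 and 2.01, from signals of 1133 against 579 on replicate 1 and 1732 against 431 on replicate 4, and the groups did not overlap. The mean was 1.49 ± 0.73 (SD, n = 2), with a limma adjusted p of 0.000251. Pcdh19, a delta 2 protocadherin on the X chromosome mutated in an epilepsy that affects mostly girls, was nearly identical on both arrays at 1.31 and 1.35. Signals were 2575 and 2647 in oligodendrocytes and 1042 and 1036 in astrocytes. The limma adjusted p was 1.19e-05 for a mean of 1.33 ± 0.034 (SD, n = 2), but a second probe of the gene read 0.13 and was not called.

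Smaller ratios on this side lost their call under median centring and under spike-in scaling. Pcdh7, a delta 1 gene, had log2 ratios of 1.08 and 0.96, a mean of 1.02 ± 0.079 (SD, n = 2), with a limma adjusted p of 8.1e-05. Pcdh15, the tip-link protocadherin of inner ear hair cells, read 0.78 and 0.83, and its second probe was also called at 0.73. Pcdh11x, an X-linked delta 1 gene, had a mean of 0.53 and a limma adjusted p of 0.00518. Pcdh15 and Pcdh11x were at mean ratios of 0.098 and -0.17 under the spike-in scaling.

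The genes Pcdh8, Pcdh17, Pcdh20 and Pcdh9 follow one another on mouse chromosome 14 and were all called higher in oligodendrocytes. RefSeq's GRCm38.p6 annotation places 3 other protein-coding genes among them, a stretch singled out after the values were seen. Olfm4 did not reach the brightness filter. Diaph3, a formin that nucleates actin, was called higher in astrocytes at -0.69 ± 0.059 (SD, n = 2), with a limma adjusted p of 0.00114. Tdrd3 was not called at -0.07.

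The bases just before the annotated starts of 3 of these genes, and of Pcdh10, which went the other way, are given as a description. Their part in the ratios was not tested. Each stretch is the 250 bases upstream of the start in RefSeq's table for GRCm38.p6, read 5′ to 3′ on the gene's own strand; of the starts listed for Pcdh9, 2 in number, the more upstream was taken. Capitals mark ACAAAG (a SOX-type motif), CAGCTG (an E-box of basic helix-loop-helix factors), CACCTG (an E-box bound by Snail and Zeb factors) and CCAAT (the CCAAT box), each on either strand.
Pcdh17, chr14:84443313-84443562, plus strand: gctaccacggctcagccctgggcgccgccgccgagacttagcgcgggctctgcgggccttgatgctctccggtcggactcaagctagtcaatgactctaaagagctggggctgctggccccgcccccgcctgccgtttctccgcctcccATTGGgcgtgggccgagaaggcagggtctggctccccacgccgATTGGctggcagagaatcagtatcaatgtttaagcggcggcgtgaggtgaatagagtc
Pcdh9, chr14:93890680-93890929, minus strand: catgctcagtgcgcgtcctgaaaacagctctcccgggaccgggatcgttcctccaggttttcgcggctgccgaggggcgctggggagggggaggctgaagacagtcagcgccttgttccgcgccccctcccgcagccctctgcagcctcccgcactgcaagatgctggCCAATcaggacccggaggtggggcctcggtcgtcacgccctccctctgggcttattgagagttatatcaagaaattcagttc
Pcdh8, chr14:79771313-79771562, minus strand: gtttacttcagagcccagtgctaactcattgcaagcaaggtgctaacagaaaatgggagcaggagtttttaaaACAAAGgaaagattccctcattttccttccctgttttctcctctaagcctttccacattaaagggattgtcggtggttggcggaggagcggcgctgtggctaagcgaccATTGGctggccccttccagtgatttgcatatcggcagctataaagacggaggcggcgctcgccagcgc
Pcdh10, chr3:45378148-45378397, plus strand: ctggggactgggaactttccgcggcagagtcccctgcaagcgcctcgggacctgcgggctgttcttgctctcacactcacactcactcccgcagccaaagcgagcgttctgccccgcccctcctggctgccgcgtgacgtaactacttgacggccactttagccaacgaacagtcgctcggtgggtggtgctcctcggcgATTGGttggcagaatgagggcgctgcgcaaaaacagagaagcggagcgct
In all, 26 listed starts belonged to 23 of the member genes. CCAAT, added to the search after these sequences had been read, occurred in each stretch shown and in 16 of the 26 windows of members. It was found in 33.8% of all 32851 windows of this length. The 16 include the stretches in which it was first seen, so that count is not independent of the choice of motif. ACAAAG occurred in 5 member windows (16.5% of all windows), CAGCTG in 2 (13.0%) and CACCTG in 4 (17.2%). Of the stretches shown, that of Pcdh8 held ACAAAG, and none held either E-box. Pcdh17, Pcdh9 and Pcdh10 had 64.8%, 63.6% and 63.2% G and C in these bases, and Pcdh8 had 51.2%. The window of Pcdh20, not shown, had 42.4% and held CCAAT, and the median was 52.4% over all windows.

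Pcdh10, a delta 2 protocadherin that recruits the actin-regulating WAVE complex to cell contacts, was the member of this group with the lowest ratio. Its signals were 2684 and 2551 in oligodendrocytes and 7510 and 6999 in astrocytes, with no overlap. The mean log2 ratio was -1.47 ± 0.020 (SD, n = 2), with a limma adjusted p of 5.96e-06. Of its 4 probes, 2 were called higher in astrocytes, and the others read -0.37 and -0.34 without a call. Pcdh21, the photoreceptor cadherin now named Cdhr1, was dim, at 106 and 120 in oligodendrocytes and 267 and 253 in astrocytes. Its mean was -1.20 ± 0.18 (SD, n = 2), with a limma adjusted p of 3.54e-05. Pcdh18, the last delta 2 gene, was called at -0.36 but lost the call under median centring.

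Ependyma markers were called higher in astrocytes for all 7 genes tested, with summed signals of 161279 and 139005 in astrocytes and 18353 and 12020 in oligodendrocytes. None of the 7 was below background in either cell type, and their part in the astrocyte-side results was not tested. On the oligodendrocyte side, 5 of 7 neuron markers were called higher in oligodendrocytes, Stmn2 was called higher in astrocytes at -1.20, and Syt1 was not called. The 7 summed to signals of 19449 and 23153 in oligodendrocytes, of which Elavl3 alone gave 15293 and 19281, against 4814 and 5049 in astrocytes. None was below background in either. Their part in the oligodendrocyte-side results was not tested.

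Pcdh1 and Pcdh12, both better known from epithelium and endothelium, were not called. Pcdh1 had opposite signs on the arrays, 0.40 and -0.26, so its spread (SD 0.46, n = 2) exceeded its mean of 0.069. Under the spike-in scaling its ratio turned to -0.64.

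**Figure D2:**
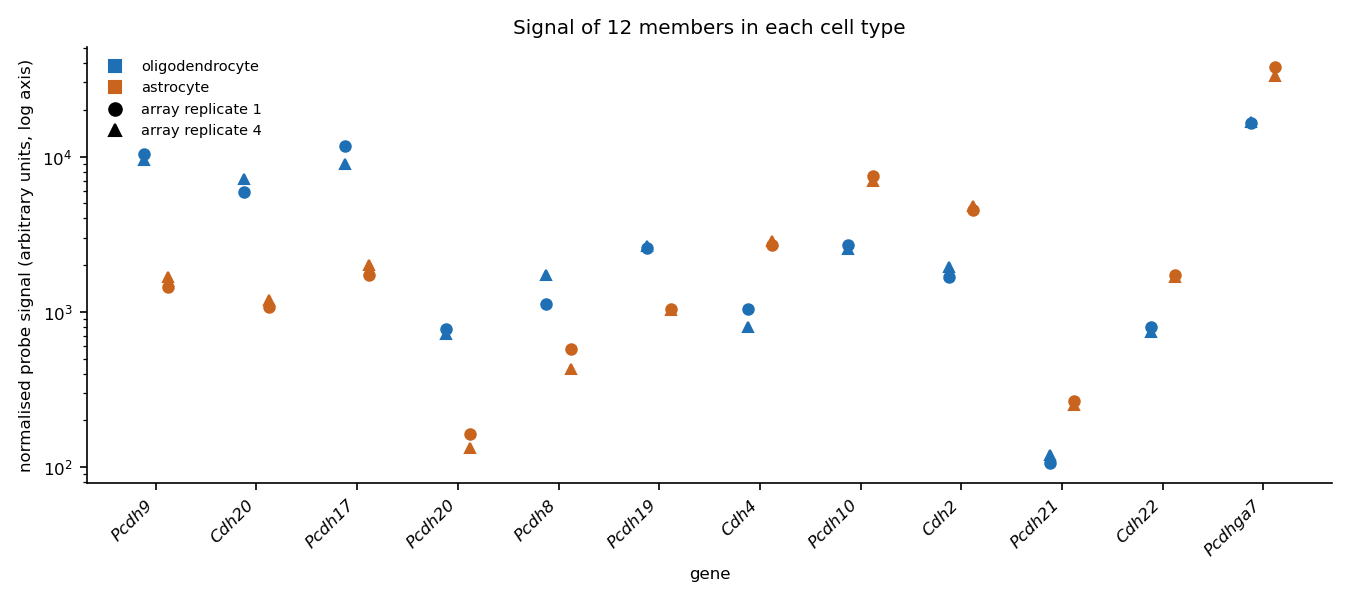
Normalised signal in arbitrary units (log axis) of 12 genes (x axis), blue for oligodendrocytes and orange for astrocytes, circles for replicate 1 and triangles for replicate 4. The genes are the 12 whose call held under each of the 13 alternatives tested with limma. Within each gene, read by its brightest probe, the blue and orange points do not overlap. The genes were picked by their calls, so this separation is no further evidence. Signals of different genes come from different probes and are not comparable.

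Of the 14 classical cadherins tested, 10 were called (71.4%, against 41.2% of all genes), and their median log2 ratio was 0.10. Each direction held 5 genes (35.7%), against 18.5% of all genes for oligodendrocytes and 22.6% for astrocytes. Median centring left 1 and 3 of these calls, and spike-in scaling gave 1 and 9. Over all 21896 genes these scalings gave 1085 and 1843, and 1258 and 18020. Of 4 type I genes, 3 were called, all higher in astrocytes, with a median of -0.91. Of 10 type II genes, 5 were called for oligodendrocytes and 2 for astrocytes; their median was 0.29, which turned to -0.42 under spike-in scaling. These counts describe few genes, and the difference between the types was not tested.

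Cdh4, R-cadherin, which retinal and brain cells use for sorting, had the largest astrocyte-side ratio of all members. Read at chr2:180400026-180400085 (mm7), it had signals of 1048 and 803 in oligodendrocytes and 2696 and 2879 in astrocytes, without overlap. The log2 ratios of -1.36 and -1.84 gave a mean of -1.60 ± 0.34 (SD, n = 2) or 3.04-fold, with a limma adjusted p of 1.12e-05. Its 3 probes ran from -1.60 to -0.24, and 2 of them were called. Cdh2, N-cadherin, the main cadherin of neural tissue, read 1674 and 1953 in oligodendrocytes and 4520 and 4795 in astrocytes. The mean of -1.36 ± 0.097 (SD, n = 2) had a limma adjusted p of 1.11e-05, and all 3 of its probes were called in this direction, at -1.36 to -0.38. Cdh15, the M-cadherin of muscle, was called at -0.46 ± 0.098 (SD, n = 2), with a limma adjusted p of 0.0122, and lost its call under median centring, which left 2 of the 3 type I calls.

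Cdh1 (E-cadherin), the defining cadherin of epithelium, did not enter the test. Its single probe, printed on 10 spots, was not well above background in oligodendrocytes on either array, with mean signals of 71.9 and 81.1 there and 83.2 and 83.3 in astrocytes. Cdh3, P-cadherin, was tested and not called, at 0.097.

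Cdh20, a type II cadherin of developing neural tube and glia, was the classical cadherin with the largest oligodendrocyte-side ratio. Its signals were 5923 and 7195 in oligodendrocytes and 1074 and 1198 in astrocytes, and the groups did not overlap. The log2 ratios of 2.46 and 2.59 gave a mean of 2.52 ± 0.086 (SD, n = 2) or 5.75-fold, with a limma adjusted p of 2.11e-07. It was also the single member with probes called in opposite directions. A dimmer probe, whose coordinates start 967 bases away on chromosome 1, read 779 and 723 in oligodendrocytes and 1415 and 1254 in astrocytes. Its mean log2 ratio was -0.83 ± 0.048 (SD, n = 2), with a limma adjusted p of 0.000256 over all probes. The first 30 of the 60 bases of each probe are given because the gene's direction rests on which of them is read.
Cdh20, brighter probe, chr1:104894438-104894497 in mm7: gcatgggttagagggctttcctaatctgtg
Cdh20, dimmer probe, chr1:104893471-104893530 in mm7: tcagagcagagctttgatttcctcacggac
Over its full length the brighter probe had 41.7% G and C and the dimmer one 55.0%. Each listed RefSeq transcripts of 1 gene. With the mean of both probes in place of the brighter one, the gene was still called higher in oligodendrocytes, at 0.85.

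Cdh22, a type II cadherin of brain and pituitary, was the other type II gene beyond 2-fold. Its signals were 804 and 741 in oligodendrocytes and 1740 and 1682 in astrocytes. The mean of -1.15 ± 0.049 (SD, n = 2) had a limma adjusted p of 3.41e-05. Cdh8, a cadherin of cortical and sensory circuits, was called in the same direction at -0.65, from dim signals of 102 and 104 against 154 and 168. Its second entering probe read -0.24 without a call, and the gene lost its call under median centring, at -0.60.

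Cdh10, a type II cadherin of brain and of brain vessels, was called higher in oligodendrocytes at 0.79 ± 0.14 (SD, n = 2), with a limma adjusted p of 0.000536. Its signals were 593 and 663 in oligodendrocytes and 367 and 357 in astrocytes. Of 5 entering probes, 3 were called, and all 5 lay between 0.12 and 1.26. Under median centring and spike-in scaling it lost its call, at 0.73 and 0.086.

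The other 3 type II genes called higher in oligodendrocytes are known markers of other cells, and each is given beside the list for that cell. Cdh5 (VE-cadherin), the cadherin of endothelium, had log2 ratios of 0.57 and 0.91, a mean of 0.74 ± 0.24 (SD, n = 2), with a limma adjusted p of 0.00122. Its signals were 174 and 190 against 117 and 101, and a second probe read 0.15 without a call. Under median centring and spike-in scaling Cdh5 lost its call, at 0.80 and 0.033. Of 7 endothelial markers tested, 1 (Emcn) was called higher in oligodendrocytes and 1 (Kdr) in astrocytes, with summed signals of 2040 and 1948 in oligodendrocytes and 2259 and 2107 in astrocytes.

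Cdh11, a cadherin of mesenchymal cells, had signals of 2068 and 1893 in oligodendrocytes and 1359 and 1541 in astrocytes. The mean of 0.45 ± 0.22 (SD, n = 2) had a limma adjusted p of 0.0185, and all 3 probes were called. Of 8 fibroblast and meninges markers, 6 were called higher in oligodendrocytes and none in astrocytes, with summed signals of 69539 and 72928 against 17071 and 15370. Cdh19, a cadherin of Schwann cell precursors and melanocytes, read 113 and 141 against 93.7 and 85.7. Its ratios of 0.27 and 0.72 gave a mean of 0.49 ± 0.31 (SD, n = 2), with a limma adjusted p of 0.017. Of 7 Schwann and melanocyte markers, 6 were called higher in oligodendrocytes, and their summed signals were 14251 and 13377 against 1616 and 1541. One of the 7 was not well above background in astrocytes. The part of these cells in the cadherin results was not tested. Under the spike-in scaling Cdh11 and Cdh19 turned to -0.26 and -0.21, neither of them called. Both also lost the call under median centring.

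The clustered protocadherins had small ratios. Of 29 tested, 11 were called, a share of 37.9% that is near the 41.2% of all genes. Calls numbered 9 for oligodendrocytes (31.0%, against 18.5% of all genes) and 2 for astrocytes (6.9%, against 22.6%). None of the 29 reached 2-fold on both arrays. Their median log2 ratio was 0.13, and it was -0.58 under the spike-in scaling. The beta array supplied 8 of the 9 oligodendrocyte-side calls among its 21 tested genes (38.1%, against 18.5% of all genes). Its median was 0.24 and its range -0.21 to 0.94. No beta gene was called higher in astrocytes with loess, and median centring called 0 in either direction. The spike-in scaling called 16 of the 21 higher in astrocytes, as it did 18020 of all 21896 genes.

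Pcdhb10 was the beta gene with the largest ratio. Its signals were 296 and 245 in oligodendrocytes and 143 and 138 in astrocytes, and its mean log2 ratio was 0.94 ± 0.16 (SD, n = 2), with a limma adjusted p of 0.000182. Pcdhb20, at 887 and 842 against 539 and 547, had a mean of 0.67 ± 0.069 (SD, n = 2) and a limma adjusted p of 0.00133. Pcdhb3 followed at 0.64 ± 0.20 (SD, n = 2), with a limma adjusted p of 0.00268. In all 3, picked for their large ratios, the cell types did not overlap, and all 3 lost the call under median centring and spike-in scaling. The other beta genes called were between 0.36 and 0.45. Along the array, 27 beta probes span 224 kb on chromosome 18. Their ratios had a Spearman rho of -0.33 and a Pearson r of -0.26 with position, and a rho of 0.093 with brightness, as a description of probes that share the same arrays.

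In the alpha and gamma arrays the probes fell into 2 kinds, those that list RefSeq transcripts of at most 1 gene and those that list transcripts of several genes of the array. Which exons they lie in was not determined here. For gamma, 3 shared probes lie near the far end of the locus and all were called higher in astrocytes, at -1.09, -1.05 and -0.56. Of 5 gamma probes that list no other gene, 1 was called in that direction, that of Pcdhga12, which lists no RefSeq transcript, and they ranged from -0.38 to -0.01. The array files name the shared probes for Pcdhga7, whose brightest probe is one of them, so that its value is that of RNA from several gamma genes. That probe read 16493 and 16637 in oligodendrocytes and 37853 and 32796 in astrocytes, without overlap. Its mean log2 ratio was -1.09 ± 0.16 (SD, n = 2) or 2.13-fold, with a limma adjusted p of 6.39e-05. The probe that lists Pcdhga7 alone was at 131 and 120 against 135 and 134, a mean of -0.10, and was not called.

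Pcdhga12 was not well above background in oligodendrocytes on either array. Its mean signal in astrocytes was 1.30-fold that in oligodendrocytes, a mean fold because the dim signal lay above the lowest measured level, with a limma adjusted p of 0.0306. The call was lost with the arrays as a block (adjusted p = 0.123) and under median centring. For alpha, the 3 shared probes read -0.25 to 0.32 and none was called. Of 3 probes of single alpha genes, 1 was called, that of Pcdha4 at 0.41 ± 0.13 (SD, n = 2), with a limma adjusted p of 0.0222. Its spike-in-scaled ratio was -0.29. Probes of near-identical genes can bind each other's RNA, so values of single clustered genes are uncertain.

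**Figure D3:**
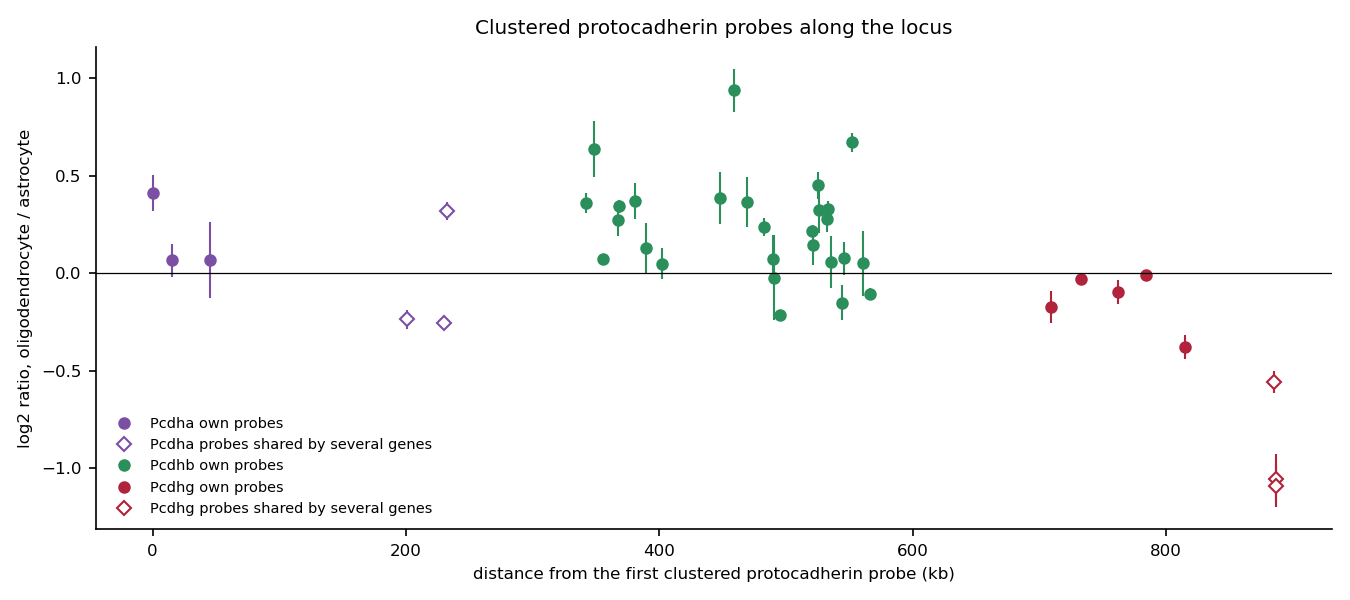
Mean log2 ratio of oligodendrocyte over astrocyte (y axis) of each entering clustered protocadherin probe by its distance in kb from the first such probe (x axis); bars span the 2 arrays, and open diamonds are alpha or gamma probes that list several genes; the Pcdhb18 probe, which also does, is a circle. The beta probes lie between -0.21 and 0.94, and the 3 shared gamma probes at the right end lie between -1.09 and -0.56.

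None of the 4 other cadherins tested was called by limma, and none had an unadjusted p under 0.05. These were Cdh13 (T-cadherin), which is held by a lipid anchor and lacks a tail for catenins, Cdh16, Cdh23 and Cdh26, with mean ratios from -0.24 to 0.10. Of 13 alternatives tested with limma, the smaller offset, Feature Extraction's log ratio and the authors' value table each called 1 of them. The spike-in scaling called all 4 higher in astrocytes, as it did 18020 of all 21896 genes. Cdh13 was well above background in both cell types, at 2378 and 2327 in oligodendrocytes and 2283 and 2096 in astrocytes. Genes with no probe that entered were Cdh1, Cdh9, Cdh17, Cdh18, Cdh24, Pcdhb1 and Pcdhgb4, 7 in all.

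Several members had probes that disagreed in size. Of the genes with more than 1 entering probe, Cdh20 had the widest spread of mean log2 ratios, at 3.35. Pcdh17 followed at 1.41, Cdh4 at 1.36, Pcdh10 at 1.21, Pcdh19 at 1.20 and Cdh10 at 1.14. In each of these the brightest probe was the furthest from 0 or close to it, except in Cdh10. Pcdh15, Cdh11 and Pcdh12 had spreads under 0.1.

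**Figure D4:**
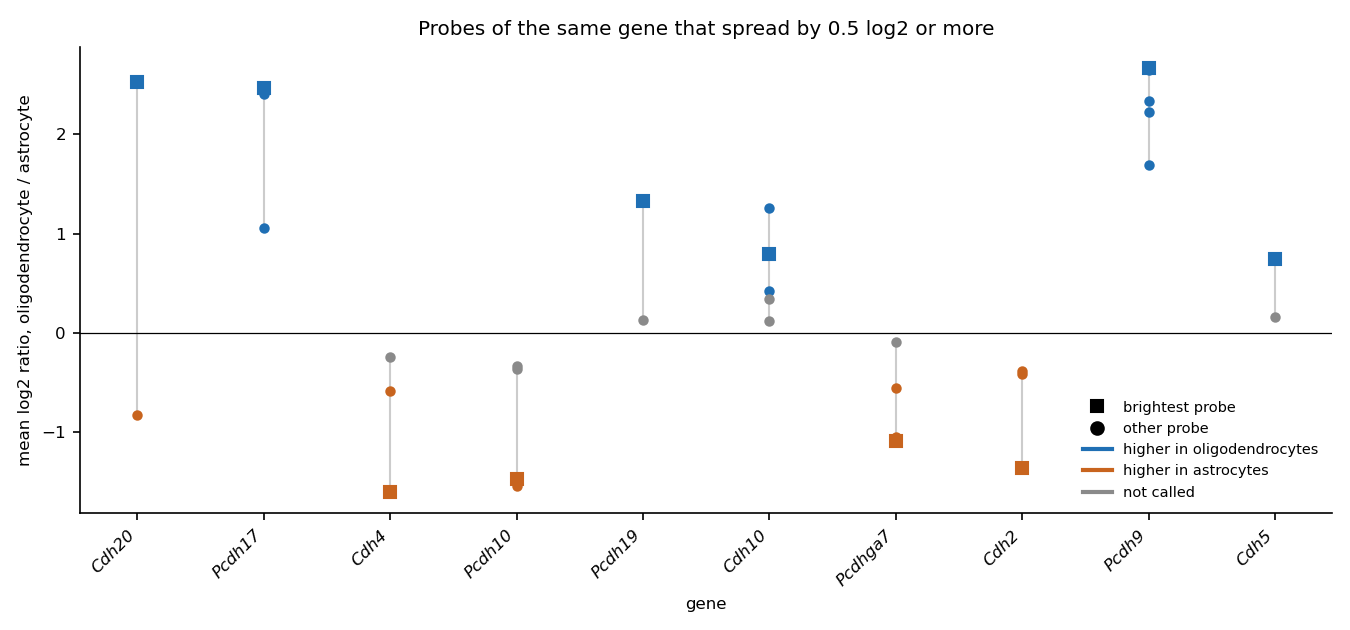
Mean log2 ratio over both arrays (y axis) of each entering probe of the genes whose probes spread by 0.5 or more (x axis), squares for the brightest probe, circles for others, coloured by limma's call per probe. Only Cdh20 has probes called in opposite directions, at 2.52 and -0.83.

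Catenins and related linkers connect cadherin tails and other junction proteins to the actin skeleton. Of 15 tested, 8 were called for astrocytes, against 22.6% of all genes, and 1 for oligodendrocytes, against 18.5%, and the list's median log2 ratio was -0.57. Median centring called 5 and 0, and the spike-in scaling 14 and 0. Of all 21896 genes they called 1843 and 18020 for astrocytes. Arvcf, a p120-type catenin, had the lowest ratio at -2.37 ± 0.21 (SD, n = 2), with a limma adjusted p of 4.52e-07. Ctnnal1, an alpha-catenin-like protein, was at -1.41 and Ctnnd2 (delta-catenin) at -1.39. Ctnna1 and Ctnna2, the alpha-catenins that reach actin, were called at -0.80 and -0.57. The core beta-catenin gene Ctnnb1 (-0.32), p120-catenin Ctnnd1 (-0.30) and plakoglobin Jup (-0.15) were not called. Pkp4, a plakophilin-related catenin, was called higher in oligodendrocytes at 0.63, and was at -0.08 under the spike-in scaling.

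A further list held the large cadherins with FAT, Dachsous, seven-pass or calsyntenin structure, and the cadherin-related Cdhr genes. Of these 13 were tested, Cdhr1, Cdhr2 and Cdhr5 among them. For astrocytes 5 were called (22.6% of all genes) and for oligodendrocytes 1 (18.5%). Median centring called 4 and 0, and the spike-in scaling 12 and 0, beside 1843 and 18020 of all 21896 genes called for astrocytes. Celsr1, a planar cell polarity receptor also found in ciliated ependyma, read -2.82 and -2.93, with a limma adjusted p of 1.09e-07. The others were Clstn1 (-1.12), Celsr2 (-1.02), Fat1 (-0.98) and Cdhr1, which is the member listed above as Pcdh21. Clstn3, a calsyntenin of synapses, was called higher in oligodendrocytes at 0.69, and was at -0.02 under the spike-in scaling. Of 8 desmosomal genes, the plakin Dsp included, 4 were tested and none was called by limma or had an unadjusted p under 0.05. As for the other cadherins, 3 alternatives called 1 of them and the spike-in scaling called 4.

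Of 15 genes tied to protocadherin signalling and to the choice of clustered genes, 6 were called for oligodendrocytes, beside 18.5% of all genes. Another 3 were called for astrocytes, a share near the 22.6% of all genes. Median centring called 4 and 0, losing all 3 astrocyte-side calls, and the spike-in scaling 4 and 10. Cyfip2 and Wasf1, parts of the WAVE complex that some protocadherins recruit, were at 1.78 ± 0.092 and 1.78 ± 0.057 (SD, n = 2), with limma adjusted p of 1.76e-06 and 1.69e-06. Fyn, a kinase that also drives myelination, was at 1.35, Ptk2b (PYK2) at 1.26, Ptk2 (FAK) at 0.52 and Abi1 at 0.35. Cyfip1, the close relative of Cyfip2, was called higher in astrocytes at -0.52, as were Dab1 at -0.44 and Ryk at -0.41. Ctcf, the insulator protein that chooses clustered promoters, was not called at 0.30. Under the spike-in scaling Ptk2 and Abi1 turned to -0.18 and -0.36.

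Of 8 tested genes for cadherin shedding and turnover, 3 were called for oligodendrocytes (18.5% of all genes) and 1 for astrocytes (22.6%). They were Psen2 (0.75), Aph1a (0.69) and Adam17 (0.62), and on the astrocyte side Aph1b (-0.51), all parts of gamma-secretase except the sheddase Adam17. None of the 4 was called under median centring. The spike-in scaling called 0 and 5 of the list, beside 1258 and 18020 of all genes. It put Psen2, Aph1a and Adam17 at 0.047, -0.014 and -0.086. Adam10, the main sheddase of N-cadherin, was not called with loess, at -0.09. Of 9 regulators known from cadherin switching in epithelia, 5 were called for oligodendrocytes (18.5% of all genes) and 1, Tcf3 at -0.34, for astrocytes (22.6%). Snai2, a repressor of E-cadherin, read 3.08 and 2.91 on the arrays, with a limma adjusted p of 1.05e-07. Zeb2, which oligodendrocytes use in differentiation, was at 1.38, Foxc2 at 1.06, Snai1 at 1.03 and Twist2 at 0.66. Median centring gave 3 and 0, without Snai1, Twist2 and Tcf3, and the spike-in scaling 3 and 4.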

How the data were processed

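RNA of both cell types was measured on 2 Agilent 2-colour arrays. The deposited files hold spot intensity per channel, not normalised, and Agilent Feature Extraction 9.5.3.1 and the mm7 build are named per the file headers. They also hold log10 ratios (Cy5 over Cy3) that Feature Extraction had corrected for background and dye, per the file headers; the authors' value table repeats these log10 ratios. Spot marks (other columns) were used as deposited.

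Intensities were corrected with normexp (offset 50, which compresses ratios of dim probes) and loess within arrays in limma 3.58.1 (R 4.3.3), control spots having weight 0. Ratios, set as oligodendrocyte over astrocyte on both arrays, were averaged over a probe's spots. Probes without an outlier mark were kept if well above background on both arrays in at least 1 cell type. A gene was its brightest such probe: 32565 probes gave 21896 genes. These were tested with lmFit and eBayes against 0 and adjusted by Benjamini-Hochberg over all of them. There is 1 residual degree of freedom per gene, so the number of arrays limits the precision. The prior that eBayes takes from all genes adds 8.43 degrees of freedom and so weighs more than a gene's own spread. Signals per cell type came from loess and Aquantile. RefSeq (GRCm38.p6) named 77 member probes by accession and 36 by symbol. The headers give 1 slide and scan for both arrays, which leaves no batch to test.

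The members and lists were chosen with earlier results of these data known. Values are given for member genes called at a log2 ratio of at least 1, the 3 largest per direction in each family and per partner list, genes with opposite probes, and a preset list. Further genes, named where a count was small, were picked with their values in view. Alternatives changed 1 choice at a time: background, offset, normalisation, scaling, filters, probe summary, prior, array block, and each array alone. The fit was tested on simulated data.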

Additional observations from a re-analysis of the deposited data

How the results depend on the processing

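Counts below are genes higher in oligodendrocytes, then in astrocytes; with the settings of the report they were 22 and 10 for all members, 5 and 5 for classical cadherins, 9 and 2 for clustered and 8 and 3 for other protocadherins. Median centring gave 6 and 6, 1 and 3, 0 and 1, and 5 and 2. Spike-in scaling gave 6 and 41, 1 and 9, 0 and 23, and 5 and 5. A size of 2-fold on both arrays with no test gave 5 and 5, 1 and 3, 0 and 0, and 4 and 2. Every probe tested on its own gave 35 and 17 of 98 entering member probes, 9 and 9 of 28, 11 and 4 of 41, and 15 and 4 of 25. The share called over all 32565 entering probes is not given here, so these counts cannot be set beside those of genes. With every channel well above background, 1 clustered gene was called higher in astrocytes.

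Medians of the log2 ratio, in the same order of families, were 0.10, 0.10, 0.13 and 0.81. An offset of 10 gave 0.16, 0.18, 0.15 and 1.11, and Feature Extraction's log ratio and the authors' value table both gave 0.29, 0.37, 0.25 and 1.40. Median centring gave 0.18, 0.20 and 0.17 for the first 3, and spike-in scaling -0.61, -0.61, -0.58 and 0.098. Without background subtraction the last 2 were 0.11 and 0.74. The clustered median was 0.073 with no filter on dim probes and over probes, and the median of other protocadherins 0.73 with the mean of a gene's probes. The arrays taken alone gave 0.15 to 0.19 for all members, 0.087 to 0.13 for classical, 0.19 to 0.19 for clustered and 0.78 to 0.83 for other protocadherins.

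Over all genes the calls were 4061 and 4953; median centring gave 1085 and 1843, and spike-in scaling 1258 and 18020. Of the 25 genes followed by name, 11 lost their call under median centring and 5 under spike-in scaling, which also turned 6: Cdh11 (-0.26), Cdh19 (-0.21), Pcdhb20 (-0.037), Pcdhb3 (-0.069), Cdh13 (-0.60) and Pcdh1 (-0.64). Cdh19 was not called without background subtraction. The spike-in shift is a constant per array, so it lowers every ratio; the cause of the other changes was not tested. With the array as a replicate block (separate channels), the clustered genes called higher in astrocytes were 1 in place of 2, since Pcdhga12 lost its call (adjusted p = 0.123), and no other gene followed by name changed. Array signal over background limits the dim members, whose ratios the offset compresses.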
